A study of Mus musculus with 2 samples.

Results

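The Mir181 family was described in small RNA libraries of whole heart from male B6CASTF1/J mice, an F1 hybrid strain, at 2 months of age. Its 6 members were found by gene symbol among the 2202 microRNA genes counted, and all 6 were present. They lie in 3 clusters of 2 genes each: Mir181a-1 with Mir181b-1, Mir181a-2 with Mir181b-2, and Mir181c with Mir181d. The libraries are biological replicates 1 and 2 of a single group, with no treatment. The labels number them as different males but give both the same donor identifier, so a difference between these libraries may be technical. The p-values between them set such a difference against counting noise only. Of 10362589 reads in replicate 1 and 10483233 in replicate 2, 3650782 and 3810675 fell on the strand of a microRNA gene. Reads with several places in the genome made up 47.2% ± 1.07 of the reads (SD, n = 2) and entered no gene. As a check of the tissue label, Mir208a and Mir499, which lie in myosin genes of heart muscle, were at 1329 and 2601 CPM in replicate 1 and at 4265 and 2507 CPM in replicate 2. The other genes of the 7-gene heart muscle list were low in counted reads. Mir208b and Mir1a-2 lay between 24.7 and 118 CPM, and Mir1a-1, Mir133a-1 and Mir133a-2 between 1.64 and 5.51 CPM. Whether reads with several places, which entered no gene, lowered these values was not tested. CPM is the count per 1000000 reads in microRNA genes. A read spans a whole mature microRNA, so CPM was not divided by gene length.

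MicroRNAs are cut from a hairpin as a 5p and a 3p arm, and the seed near the 5′ end of the loaded arm pairs with target messenger RNAs. The miR-181 family is best known from lymphocytes, where miR-181a sets the sensitivity of the mouse T cell receptor by lowering phosphatases. In endothelium miR-181b is known to dampen NF-κB signalling, and in rat heart cells miR-181c is known to enter mitochondria and lower a mitochondrially encoded subunit of cytochrome c oxidase.

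The 5p arms are shown first because they carry the family's common seed. RefSeq, on GRCm38.p6, holds mature sequences for all 6 members, with 4 distinct 5p and 6 distinct 3p sequences. Capitals mark the seed, bases 2 to 8 from the 5′ end.
miR-181a-5p: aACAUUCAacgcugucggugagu
miR-181b-5p: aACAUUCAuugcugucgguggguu
miR-181c-5p: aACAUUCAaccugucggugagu
miR-181d-5p: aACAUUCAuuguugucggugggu
All 4 share the seed, and no other of the 1679 mature names in the RefSeq table had it. Beyond the seed they fall into a and c on the one side and b and d on the other. With positions counted from 1 at the 5′ end, miR-181b-5p became miR-181d-5p by C12U, over the 23 bases compared. Removing a single base of miR-181a-5p, G11del, gave miR-181c-5p. Between miR-181a-5p and miR-181b-5p there were 3 substitutions, A9U, C10U and A21G.

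The 3p arms are shown because they differ where the 5p arms do not, with the seed again in capitals.
miR-181a-1-3p: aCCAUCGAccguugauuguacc
miR-181a-2-3p: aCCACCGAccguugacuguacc
miR-181c-3p: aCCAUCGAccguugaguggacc
miR-181b-1-3p: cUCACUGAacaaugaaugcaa
miR-181b-2-3p: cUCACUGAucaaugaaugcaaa
miR-181d-3p: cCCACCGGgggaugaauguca
The 3p arms carried 4 seeds. That of miR-181a-1-3p was shared with miR-181c-3p, that of miR-181b-1-3p was shared with miR-181b-2-3p, and those of miR-181a-2-3p and miR-181d-3p were shared with no other name in the table. The arms miR-181a-1-3p and miR-181a-2-3p differed by U5C and U16C, and miR-181b-1-3p and miR-181b-2-3p by A9U. The substitution U5C lies in the seed, so the paralogous 3p arms of miR-181a have different seeds, while those of miR-181b have the same one.

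The hairpins of the paralogous a and b genes show how far each pair runs together. The annotated arms are in capitals.
Mir181a-1: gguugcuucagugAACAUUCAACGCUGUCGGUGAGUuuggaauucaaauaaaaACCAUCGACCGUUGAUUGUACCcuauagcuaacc
Mir181a-2: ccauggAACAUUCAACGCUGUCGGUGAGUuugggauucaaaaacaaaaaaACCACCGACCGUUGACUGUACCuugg
Mir181b-1: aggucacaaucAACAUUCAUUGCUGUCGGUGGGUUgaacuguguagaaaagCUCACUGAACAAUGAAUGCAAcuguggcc
Mir181b-2: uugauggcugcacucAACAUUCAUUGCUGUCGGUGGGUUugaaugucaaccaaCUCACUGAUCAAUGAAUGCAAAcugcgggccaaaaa
The arm miR-181a-5p was found in 2 of the 2202 hairpins searched, as was miR-181b-5p, and every 3p arm was found in 1. The longest stretch shared by Mir181a-1 and Mir181a-2 was 28 bases and that shared by Mir181b-1 and Mir181b-2 was 26 bases, and each contains the whole 5p arm. From the first base of the 5p arm, a stretch must reach 28 bases in the a genes and 25 bases in the b genes before it is found in a single hairpin. The annotated 5p arms have 23 and 24 bases. From the first base of a 3p arm, at most 16 bases are enough in all 6 genes. Mir181c and Mir181d shared no stretch longer than 17 and 13 bases with another microRNA gene, and both of their arms were found in 1 hairpin. Reads that lie within the shared 5p stretch have several places and so enter none of Mir181a-1, Mir181a-2, Mir181b-1 and Mir181b-2, and the levels of these 4 genes may be too low for that reason. A count is for the whole hairpin, and how much of it came from either arm was not tested.

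The clusters lie on 3 chromosomes of mm10. Mir181a-1 is on the plus strand of chromosome 1 from 137966455 to 137966541, and Mir181b-1 follows 97 bases downstream, from 137966639 to 137966718. Both lie in an intron of the noncoding gene Gm4258, and an exon of the noncoding gene A430106G13Rik overlaps part of Mir181a-1 and holds Mir181b-1. Mir181a-2 is on the plus strand of chromosome 2 from 38852735 to 38852810, and Mir181b-2 lies 1019 bases downstream, from 38853830 to 38853918. No annotated gene spans them on their own strand, and on the opposite strand they lie in an intron of the nuclear receptor gene Nr6a1. Mir181b-2 also overlaps an exon of Gm44144 on that strand. Mir181c is on the minus strand of chromosome 8 from 84178873 to 84178961, and Mir181d lies 85 bases downstream, from 84178716 to 84178787. Both lie within an intron of Nanos3, a germ cell gene on the same strand.

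**Figure D1:**
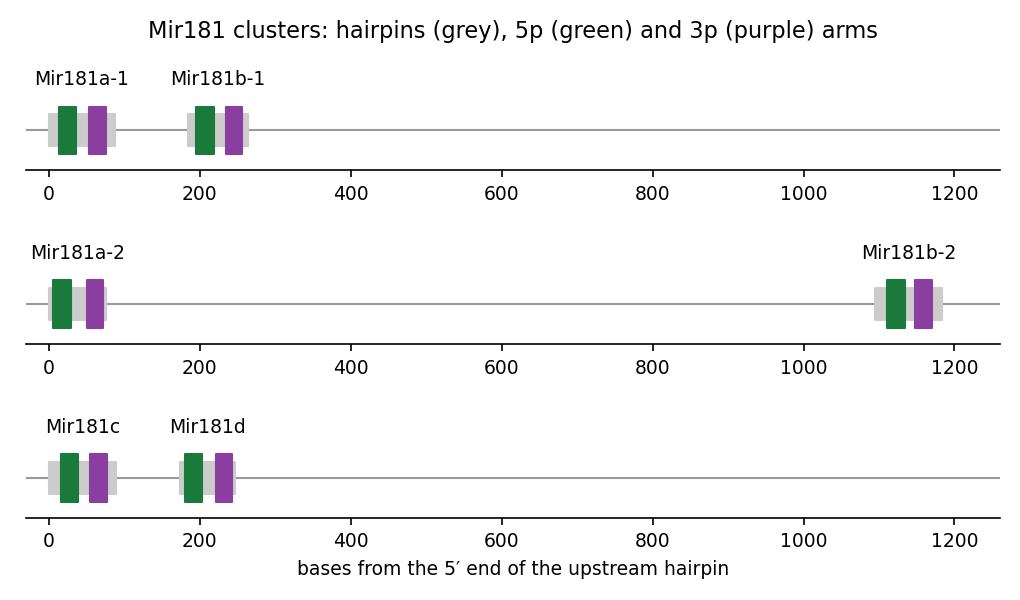
Maps of the 3 clusters, with bases from the 5′ end of the upstream hairpin on the x axis, hairpins in grey, 5p arms in green and 3p arms in purple. The genes of the clusters Mir181a-1/b-1 and Mir181c/d lie 97 and 85 bases apart, and those of Mir181a-2/b-2 lie 1019 bases apart.

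The family held a small share of the microRNA counts, and 3 of its genes carried nearly all of it. Its summed level was 2234 CPM in replicate 1 and 1838 CPM in replicate 2, a mean of 2036 CPM ± 280 (SD, n = 2). With Clopper-Pearson 95% intervals, its share of the counts was 0.223% (0.219 to 0.228) in replicate 1 and 0.184% (0.179 to 0.188) in replicate 2. These intervals, and those that follow, cover counting error only. Reads within the shared 5p stretches of Mir181a-1, Mir181a-2, Mir181b-1 and Mir181b-2 entered no gene, so the family's sum and share leave them out. The genes whose levels in the 2 libraries lay closest to the family sum, by Euclidean distance on log2(CPM + 1), were Mir98, Mir221 and Mir92-1. Mir98, a let-7 family gene, was at 2174 CPM in replicate 1 and 1826 CPM in replicate 2.

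Mir181d, the downstream gene of its cluster and single-copy in both arms, had the highest mean in counted reads. It was at 828 CPM in replicate 1 and 652 CPM in replicate 2, a mean of 740 CPM ± 124, at rank 77 of the 2202 genes. Mir181b-2 was at 969 and 451 CPM in replicates 1 and 2, a mean of 710 CPM ± 366, and led the family in replicate 1 only. Mir181c was at 321 and 598 CPM, a mean of 460 CPM ± 196 (SD, n = 2 each). The ranges of these 3 genes overlapped except for those of Mir181c and Mir181d, so their order is not settled by 2 libraries, apart from Mir181d above Mir181c in both.

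The other members were lower in counted reads, which for all of them leave out the shared 5p stretch. Mir181a-1 was at 73.4 CPM in replicate 1 and 80.0 CPM in replicate 2, a mean of 76.7 CPM ± 4.69, and had the narrowest spread relative to its mean. Mir181a-2 was at 31.5 and 52.7 CPM, a mean of 42.1 CPM ± 15.0. Mir181b-1 was the lowest, with 38 and 14 counts, at 10.4 and 3.67 CPM and a mean of 7.04 CPM ± 4.76 (SD, n = 2 each). The ranges of these 3 genes did not overlap with each other or with those of the 3 abundant genes. By mean level Mir181a-1 ranked at 155, Mir181a-2 at 186 and Mir181b-1 at 281 of the 2202 genes. All 6 passed the low-count filter of edgeR, as did 320 genes in all, and none had a read on the opposite strand in either library.

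**Figure D2:**
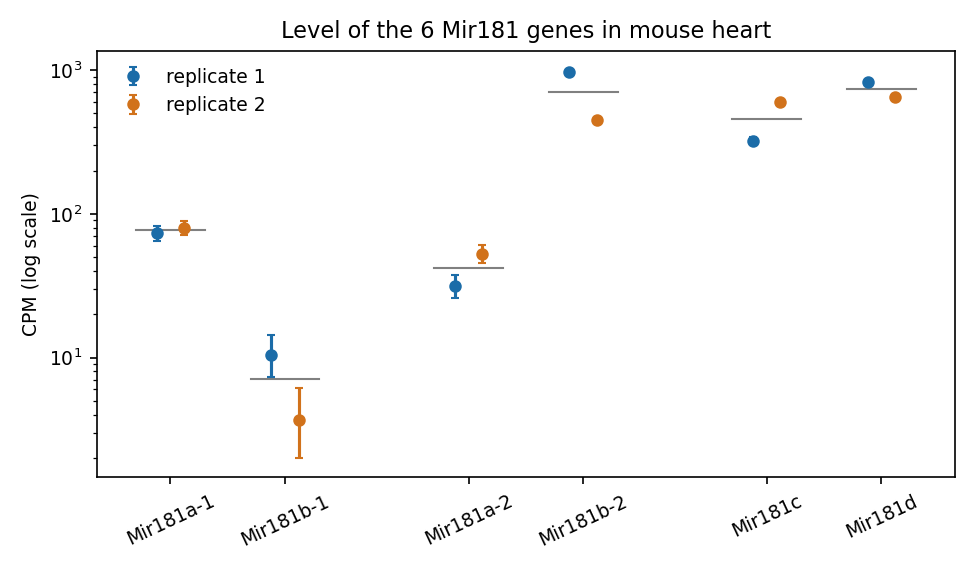
Level of each member in CPM on a log axis, with replicate 1 in blue, replicate 2 in orange, exact Poisson 95% intervals as bars and the mean of the 2 libraries as a grey line. Mir181b-2, Mir181c and Mir181d lie between 321 and 969 CPM, and the other 3 genes lie between 3.67 and 80.0 CPM.

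Between clusters, Mir181c/d and Mir181a-2/b-2 held nearly all counted reads of the family. The 2 genes of Mir181c/d summed to 1150 and 1250 CPM in replicates 1 and 2, and those of Mir181a-2/b-2 to 1000.3 and 504 CPM. Mir181a-1/b-1 was the lowest cluster, at 83.8 CPM in replicate 1 and 83.7 CPM in replicate 2. As a share of family counts, Mir181c/d held 59.8% ± 11.7, Mir181a-2/b-2 held 36.1% ± 12.3 and Mir181a-1/b-1 held 4.15% ± 0.568 (SD, n = 2 each). The 4 genes whose 5p arm is in 2 hairpins held 48.5% of the family counts in replicate 1 and 32.0% in replicate 2, and Mir181b-2 alone held 43.4% and 24.5%. Because reads within the shared 5p stretch entered no gene, these shares rank counted reads and not the output of the clusters.

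The paralogous genes of the clusters on chromosomes 1 and 2 were ordered in opposite ways. Mir181a-1 exceeded Mir181a-2 in both libraries, with a log2 ratio of CPM + 0.5 of 0.90 ± 0.43. Mir181b-1 was far below Mir181b-2, with a log2 ratio of -6.62 ± 0.20 (SD, n = 2 each). In counted reads Mir181b-2 had 88.9 times the value of Mir181b-1 in replicate 1 and 108 times in replicate 2, on the scale of CPM + 0.5. Reads within the shared 5p stretch entered neither gene of a pair, while 5p reads that run past it can enter one. In the b genes 25 bases from the start of the 5p arm are enough, and the arm has 24. How many such reads there were was not tested, and these ratios compare only reads that entered a gene. With 2 libraries the exact sign-flip test of such a ratio cannot pass 0.05, so none was tested.

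Within a cluster, the upstream gene exceeded its neighbour on chromosome 1 and fell short of it on chromosomes 2 and 8. The log2 ratio of CPM + 0.5 was 3.52 ± 1.07 for Mir181a-1 over Mir181b-1, -4.00 ± 1.30 for Mir181a-2 over Mir181b-2, and -0.75 ± 0.88 for Mir181c over Mir181d (SD, n = 2 each). The last was smaller than its spread between the libraries. The genes on chromosomes 1 and 2 are compared by counted reads, which leave out the shared 5p stretches. For comparison, over the 75 neighbouring pairs past the low-count filter, at most 10 kb apart on the same strand, the median absolute log2 ratio was 2.65.

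The libraries differed in the makeup of the family's counted reads, and 5 of the 6 members were past the test between them. Each gene's pair of counts was tested with a two-sided exact binomial test against the ratio of library sizes scaled by TMM, the trimmed mean of M values, and p was adjusted over the 320 genes by the Benjamini-Hochberg method. It compares 2 libraries with counting noise and not conditions, and 64.4% of all genes tested were past it, so being past it sets the members little apart from other microRNA genes. Of all genes tested, 33.8% were higher in replicate 1 and 30.6% higher in replicate 2. Ratios are given as replicate 1 over replicate 2.

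Mir181b-1, Mir181b-2 and Mir181d were higher in replicate 1. Mir181b-2 had 3537 and 1718 counts in replicates 1 and 2, which is a log2 ratio of 1.12 (exact binomial test, adjusted p = 3.89e-162). Mir181b-1 gave 1.48 (exact binomial test, adjusted p = 0.000868), from few counts. Mir181d had 3024 and 2486 counts, a log2 ratio of 0.36 (exact binomial test, adjusted p = 1.78e-19), which is under the median absolute log2 ratio of all genes, 0.44.

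Mir181c and Mir181a-2 were higher in replicate 2. The counts of Mir181c were 1173 and 2279, which is a log2 ratio of -0.88 (exact binomial test, adjusted p = 1.87e-67). Mir181a-2 had 115 and 201 counts, a log2 ratio of -0.73 (exact binomial test, adjusted p = 2.99e-05). Mir181a-1 was not past the test, with 268 and 305 counts and a log2 ratio of -0.11 (exact binomial test, adjusted p = 0.439). In absolute size the log2 ratio of Mir181b-1, from 38 and 14 counts, exceeded that of 93.8% of the genes tested. That of Mir181b-2 exceeded 85.9%, that of Mir181c 74.4% and that of Mir181a-2 67.2%. Those of Mir181d and Mir181a-1 exceeded 42.8% and 15.6%.

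**Figure D3:**
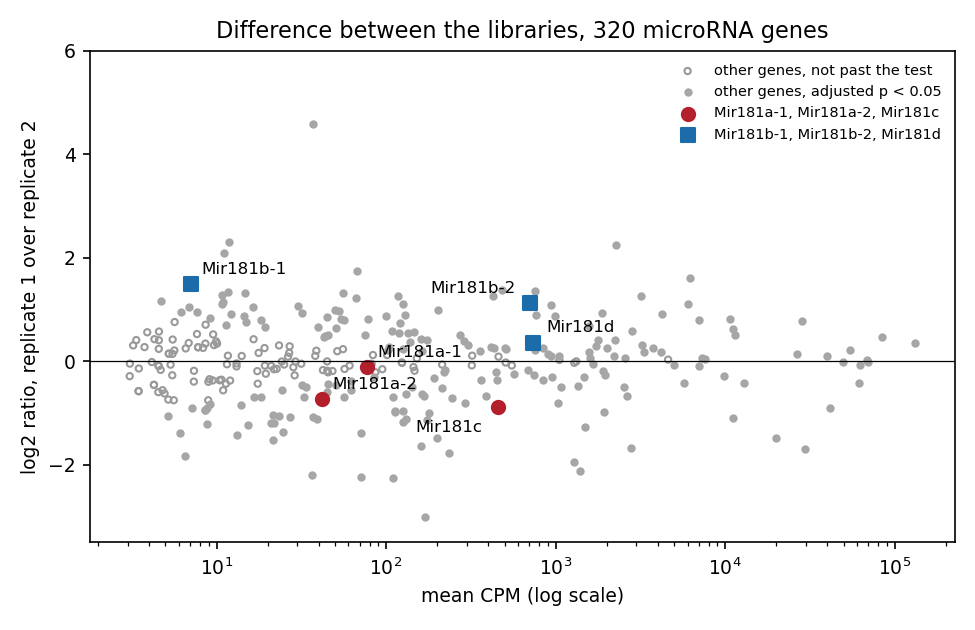
Log2 ratio of replicate 1 over replicate 2 against mean CPM on a log axis for the 320 genes tested, with filled grey points past the exact binomial test and open ones not. Mir181b-1, Mir181b-2 and Mir181d (blue squares) lie between 0.36 and 1.48, and Mir181a-1, Mir181a-2 and Mir181c (red points) lie between -0.88 and -0.11.

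The direction divided the a and c genes from the b and d genes and did not follow the clusters, a grouping chosen after the values were seen. In each cluster the a or c gene is also the upstream one, so sequence group and position in the cluster cannot be told apart. This counts Mir181a-1 by its sign, since it was not past the test. Mir181a-1, Mir181a-2 and Mir181c together were at 426 CPM in replicate 1 and 731 CPM in replicate 2. Mir181b-1, Mir181b-2 and Mir181d together were at 1808 and 1107 CPM. The a and c genes thus made up 19.1% (18.2 to 20.0) of the family counts in replicate 1 and 39.8% (38.6 to 40.9) in replicate 2, with Clopper-Pearson 95% intervals in brackets. The family sum differed less, with a log2 ratio of 0.28.

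Neighbours in the same cluster therefore differed between the libraries with opposite signs in all 3 clusters. Within its pair, Mir181a-1 had 87.6% (83.4 to 91.1) of the counts in replicate 1 and 95.6% (92.7 to 97.6) in replicate 2. Mir181a-2 had 3.15% (2.61 to 3.77) in replicate 1 and 10.5% (9.14 to 11.9) in replicate 2. Mir181c had 27.9% (26.6 to 29.3) in replicate 1 and 47.8% (46.4 to 49.3) in replicate 2. In no pair did the Clopper-Pearson 95% intervals of the libraries overlap, and these shares do not depend on how the libraries are scaled.

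By Fisher's exact test of the counts of a pair in the 2 libraries, adjusted over all 75 neighbouring pairs, the ratio differed for all 3 Mir181 pairs. The adjusted p was 0.000553 for Mir181a-1 and Mir181b-1, 6.28e-27 for Mir181a-2 and Mir181b-2, and 3.77e-83 for Mir181c and Mir181d. The ratio differed in 65.3% of all neighbouring pairs, so such a difference is common in these libraries. The log2 ratio of the upstream gene minus that of the downstream gene was -1.60, -1.84 and -1.24 in the 3 Mir181 pairs. Over all 75 pairs the median absolute difference was 0.78. Opposite signs were found in 42 of the 75 pairs, and in 26.7% of the pairs both genes were past the binomial test in opposite directions, among them Mir181a-2 with Mir181b-2 and Mir181c with Mir181d. A higher upstream gene in replicate 2 beside a higher downstream gene in replicate 1 was found in 21 pairs, including all 3 of the family. Mir181a-1 is counted there by its sign only. The reverse was found in 21 other pairs.

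**Figure D4:**
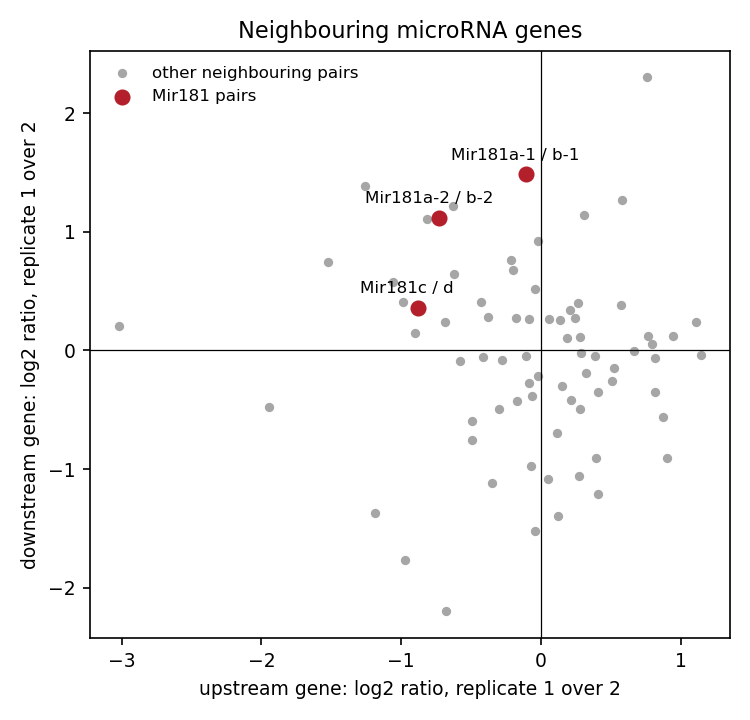
Log2 ratio of replicate 1 over replicate 2 of the upstream gene (x axis) and of the downstream gene (y axis) for 75 neighbouring pairs of microRNA genes. The 3 Mir181 pairs (red) lie in the upper left part of the plot, with upstream ratios from -0.88 to -0.11 and downstream ratios from 0.36 to 1.48.

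Genes with levels most like each member's, by Euclidean distance over log2(CPM + 1) in the 2 libraries, differed between members. Nearest to Mir181b-2 were Mir142, a microRNA of blood cells, at 1091 CPM in replicate 1 and 428 CPM in replicate 2, and Mir10b. Nearest to Mir181d were Mir107 and Mirlet7a-1, and nearest to Mir181c were Mir574 and Mir30b. Mir24-1 and Mir148b were nearest to Mir181a-1, Mir184 and Mir32 to Mir181a-2, and Gm27881 and Mir491 to Mir181b-1. With 2 libraries this measures level and 1 difference only.

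Beside the family, a list of leukocyte microRNAs had a higher sum of counted reads. The leukocyte list of 8 genes summed to 11912 and 9274 CPM in replicates 1 and 2, so the family's mean was 0.192 times that of the list. The family's sum leaves out reads within its shared stretches, and the list holds more genes. This ratio therefore compares counted reads and does not rank the output of the family and the list. Whether the list loses reads in the same way was not tested. All 6 of its genes past the low-count filter were higher in replicate 1 by the exact binomial test, against 33.8% of all genes tested. Also higher there were 6 under DESeq2 size factors, with plain totals and, of 7 tested, with no low-count filter. In the column without strand, where Mir142 has 0 counts, 5 were tested and all 5 were higher in replicate 1. The list had a median log2 ratio of 0.38, and that of all genes was -0.02. Mir142b had no count in either library, and Mir146b had 3 and 10 counts. Mir181b-1, Mir181b-2 and Mir181d were higher in the same library as this list, and Mir181a-2 and Mir181c in the other. The part of leukocyte RNA in the members' differences was not tested, and in whole heart fewer cells of a type and less RNA per cell cannot be told apart. The endothelial gene Mir126a was higher in replicate 2, with a log2 ratio of -0.41. This call was lost in the column without strand, where Mir126a has 15 counts in replicate 1 and 29 in replicate 2.

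Of 5 microRNA genes that are known, beside miR-181c, from mitochondria of heart or muscle, 4 passed the low-count filter, and 3 were higher in replicate 1 and 1 in replicate 2, where 33.8% and 30.6% of all genes tested were. In the column without strand, 2 were tested, with 1 higher in each library, since Mir378a and Mir1a-2 have 0 counts there. On the strand of the gene, Mir378a was at 148027 CPM in replicate 1 and 117249 CPM in replicate 2, a log2 ratio of 0.35. Mir21a, known from fibrosis, was at 4504 and 1908 CPM, a log2 ratio of 1.25. Mir210, the microRNA known to rise under hypoxia, was at 77.2 and 175 CPM, a log2 ratio of -1.17, the same direction as Mir181c. Mir1a-2 gave 0.82, and Mir1a-1, with 6 and 20 counts, was not tested. Mir181c, at a mean of 460 CPM, was above Mir210 in both libraries and below Mir21a and Mir378a in both.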

How the data were processed

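Small RNA below 30 bases from whole heart was sequenced as 2 libraries, which the labels number as different males under the same donor identifier. The deposited values are raw read counts per microRNA gene that the authors made on mm10 with GENCODE M21, per the accompanying text. Which aligner and counter made them is not given in the sources used here. In each file are 3 count columns (without strand, on the strand of the gene, on the opposite strand) and 4 rows that name no gene, which hold 64.2% ± 0.792 of the reads (SD, n = 2) and stayed out of all library sizes. Reads mapped to several places are in 1 of those rows.

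Reads on the gene's own strand were the main measure. CPM was computed over the sum of all gene rows. Symbols, positions, host genes and hairpins for the search of shared stretches came from GENCODE M21, and printed sequences from RefSeq. No genome sequence was searched. Shared stretches were searched on both strands. TMM library sizes and the low-count filter (filterByExpr) came from edgeR 4.0.16 in R 4.3.3, and DESeq2 1.42.0 size factors were an alternative. With 1 group no model contrast exists, so the libraries were compared by exact binomial tests. The test was checked on simulated counts with Poisson noise only. That is the noise the test assumes, so the check does not cover other differences between these libraries. Neighbouring pairs were compared with Fisher's exact test in scipy 1.17.1, a test and distance chosen after the data were seen. Alternatives were the column without strand, other denominators, scalings, filters, pseudocounts and distances, and each replicate left out. The named genes are the 6 members, the most abundant genes of 4 lists and the genes nearest in level. From the lists, Mir142b, Mir146b, Mir208b, Mir1a-1, Mir1a-2, Mir133a-1 and Mir133a-2 are also named, chosen after their values were seen. The members and lists were chosen with earlier results of these data known.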

Additional observations from a re-analysis of the deposited data

How the results depend on the processing

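The direction of all 6 members between the libraries, and whether each was past the test, was the same under DESeq2 size factors, plain library totals, no low-count filter and the column without strand. At 10 CPM or more in both libraries the same held for the 5 members left, since Mir181b-1 fell below that level. The adjusted p of Mir181a-1 stayed between 0.300 and 0.542 under these alternatives. The family share was 0.264% in the column without strand and 0.235% with the most abundant gene left out, against 0.204% as reported, since both shrink the total and leave the members' counts as they are. For the same reason Mir181d was at 961 CPM, and Mir181a-1 at 99.5 CPM, in the column without strand. The log2 ratio of the family sum was 0.33 with the most abundant gene left out. Cluster shares were the same in the column without strand, because the members' counts are the same there. Pair ratios moved by less than their spread between the libraries in that column and with CPM + 1. Leaving out either replicate always moves a mean by less than its spread, so that alternative cannot show stability. Without replicate 1 or 2 in turn, the share of Mir181c/d ranged from 51.5 to 68.0%, that of Mir181a-2/b-2 from 27.4 to 44.8%, and the log2 ratio of Mir181c over Mir181d from -1.36 to -0.13. With neighbours within 2 kb or 50 kb, distances chosen after seeing the data, 65.6% and 65.8% of pairs had a ratio that differed, and all 3 Mir181 pairs were among them. Leaving out a replicate gives no difference between libraries. No paired analysis was possible because there is 1 group. Reads with several places limit Mir181a-1, Mir181a-2, Mir181b-1 and Mir181b-2, and more depth would not remove that limit. Mir181b-1 is also limited by depth, with 14 counts in replicate 2.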
